A study of Mus musculus with 26 samples.

Results

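In the subcutaneous inguinal fat of 26 mice, 32 genes of mature, follicular B cells were measured on arrays. The genes were taken from a list of symbols, and each was read at the probe of highest mean intensity that carried its name. All 32 were found among the 26154 gene names of the deposited table. The members had 60 probes in that table, and 14 of them had a single probe. The 4 groups were total ChREBP KO mice (Mlxipl-null, lacking both isoforms of the transcription factor ChREBP, n = 7), ChREBPβ KO mice (lacking the exon of the shorter isoform after Cas9 editing, n = 5), and the WT littermates of each line (n = 7 and n = 7). All were C57BL6/J males per the study, and their age was not given in the sources used here. Every mouse, WT mice included, was fasted for 24 h and refed for 18 h with food, while its water held 20% glucose. Both deletions were present in all tissues, so that the B cells of a KO mouse carried them as well as its adipocytes. Each array held the RNA of bulk fat tissue from 1 mouse.

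A B cell senses antigen through a membrane antibody coupled to the signalling chains Cd79a and Cd79b. The kinases Blk, Syk and Btk and the adaptor Blnk carry that signal to the phospholipase Plcg2. Follicular B cells recirculate through lymph nodes, where the chemokine receptor Cxcr5 leads them into follicles and the survival receptor Tnfrsf13c keeps them alive. The inguinal fat depot of the mouse surrounds a lymph node, and adipose tissue itself holds scattered B cells. Whether that node was removed before RNA extraction was not given in the sources used here. In RNA of bulk tissue, fewer B cells and less RNA per B cell cannot be told apart.

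The 3 probes of Mlxipl checked the labels. At the probe A_55_P2119957, the KO arrays lay below all WT arrays of their line, by 2.28 in total ChREBP KO (adjusted p = 1.90e-13) and 1.52 in ChREBPβ KO (adjusted p = 6.45e-07) on the log2 scale. The probe A_55_P2728555 gave -0.9 and -0.68 (adjusted p = 0.0596 in ChREBPβ KO), and A_55_P2045158 gave -0.13 and 0.04 with overlapping arrays. Between 70.2% and 76.46% of the spots of an array were well above background, and the arrays were washed in 4 batches that each held arrays of both lines. Markers of adipocytes were high on every array, with list medians between 16.17 and 17.43. Markers of skeletal muscle varied widely inside every group, and their list median ran from 6.22 to 11.99 in WT of the total line and from 6.53 to 14.26 in total ChREBP KO. Of the members, 30 were well above background on all 26 arrays, Fcrl1 was so on 24 and Blk on 11. Defining B cell markers such as Ms4a1 and Cd79a were thus measured in all groups, and Blk was not well above background on any WT array of the ChREBPβ line.

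In total ChREBP KO, nearly all B cell genes were lower than in WT littermates. Of the 32 members, 31 fell and none rose, at a median log2 difference of -2.11, which is a 4.32-fold lower intensity. Over all genes tested, 20.2% fell and 25.7% rose, and the median log2 difference was 0.05. The largest falls were in Fcmr, the Fc receptor for IgM (-3.03 ± 0.68, adjusted p = 0.000751), Fcer2a, the low-affinity IgE receptor CD23 (-2.72 ± 0.60, adjusted p = 0.000701), and Ms4a1, which encodes the B cell antigen CD20 (-2.71 ± 0.56, adjusted p = 0.000324). These values are log2 differences ± standard error. The exception was Bcl6, a repressor that B cells use in germinal centres and that adipocytes also express, at 0.41 ± 0.35 (adjusted p = 0.36).

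**Figure D1:**
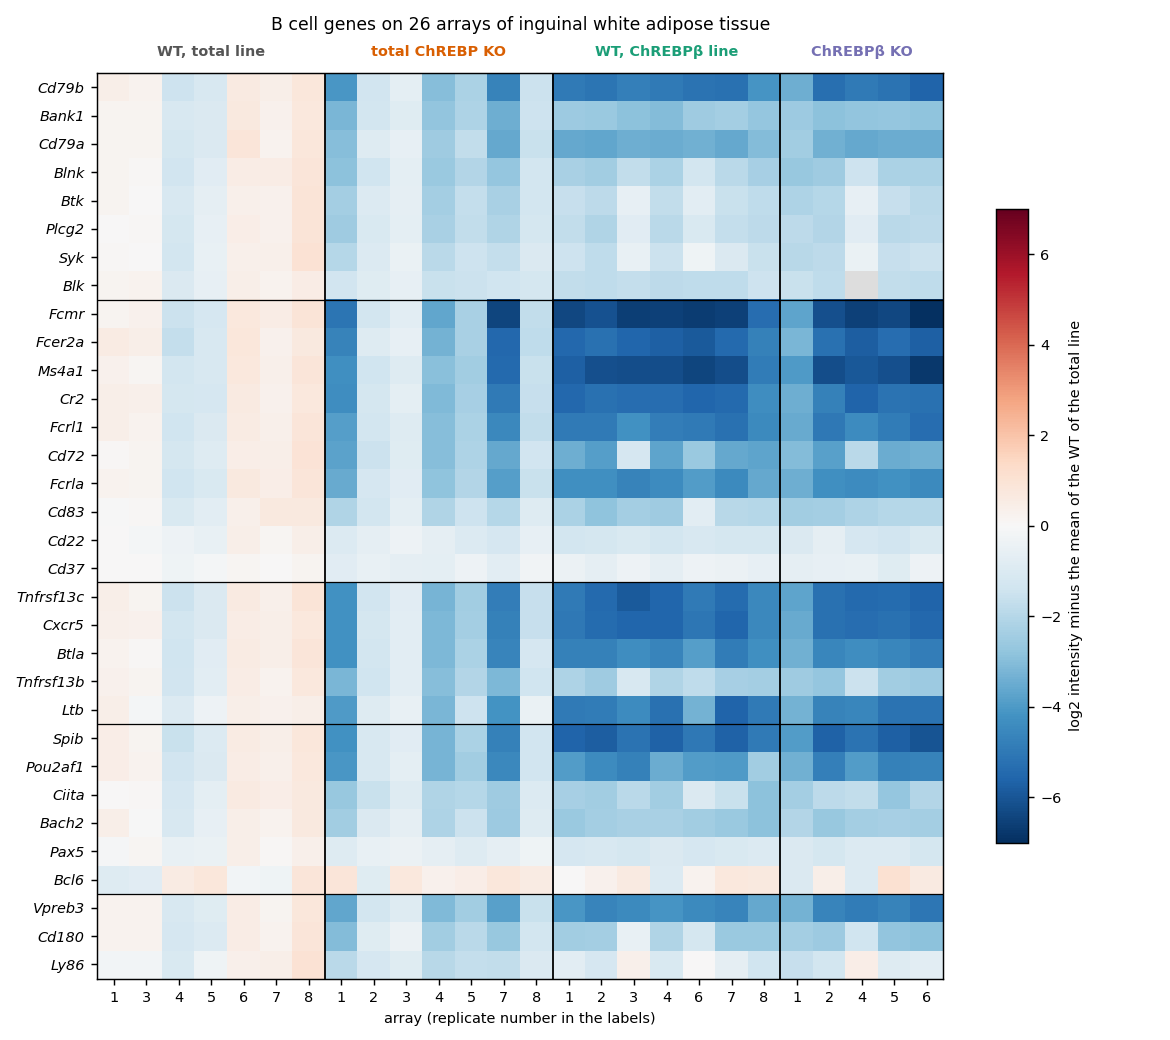
Each cell is the log2 intensity of 1 B cell gene (rows, set apart by role) on 1 array (columns), minus the mean of the 7 WT arrays of the total line, and a grey cell is a missing value of Blk. For Ms4a1, total ChREBP KO arrays 1 and 7 measured 8.37 and 7.20, and arrays 2, 3 and 8 measured 11.26, 11.77 and 11.11.

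The falls were uneven between mice. In WT of the total line, Ms4a1 measured 12.96, 12.78, 11.38, 11.57, 13.42, 13.03 and 13.54 on the log2 scale in replicates 1, 3, 4, 5, 6, 7 and 8. In total ChREBP KO it measured 8.37, 11.26, 11.77, 9.77, 10.24, 7.20 and 11.11 in replicates 1, 2, 3, 4, 5, 7 and 8. The KO arrays were widely spread, and the highest of them lay above the 2 lowest WT arrays. The same arrays stood out for most members. Arrays 1 and 7 were the 2 lowest KO arrays for 23 of the 32 members, and arrays 2, 3 and 8 were the 3 highest for 30. KO array 7 also had the lowest median signal of all arrays (59) and the lowest share of spots well above background (70.2%). It had the highest list median of skeletal muscle (14.26) as well, and the part of either in its low values was not tested. Among WT arrays, 4 and 5 were the 2 lowest for 31 members. No member separated the 7 KO arrays from the 7 WT arrays, while 4.78% of all genes did so in the lower direction. For 7 members a single KO array reached the WT range, for 19 members 2 arrays did, and for 5 members 3 arrays did. The median SD over the members was 1.04 in total ChREBP KO and 0.76 in its WT littermates. The wash batches each held few arrays, and within them the median difference over the members was -0.71, -1.44, -1.92 and -3.16, with 29 to 31 members below 0.

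The antigen receptor and its direct signalling genes fell together, with all 8 called. Cd79b, a signalling chain of the receptor, ranged from 12.22 to 14.47 in WT of the total line (median 14.07) and from 8.97 to 12.99 in total ChREBP KO (median 11.46). Its difference was -2.48 ± 0.50 (adjusted p = 0.000253). Its partner chain Cd79a ranged from 7.34 to 9.39 in WT mice (median 8.77) and from 4.99 to 7.98 in KO mice (median 6.84), a difference of -1.97 ± 0.38. KO replicates 2 and 3 reached the WT range in both genes. The kinase Syk and the phospholipase Plcg2, which myeloid cells use as well, fell by 1.35 ± 0.31 and 1.65 ± 0.30. Syk ran from 9.94 to 12.19 in WT mice (median 11.26) and from 9.21 to 10.73 in KO mice (median 9.75), and Plcg2 from 10.89 to 13.01 (median 12.20) against 9.63 to 11.44 (median 10.37). The scaffold Bank1, which couples the receptor to calcium release, fell by 2.17 ± 0.34, the adaptor Blnk by 1.95 ± 0.33 and the kinase Btk by 1.65 ± 0.32. The Src-family kinase Blk fell by 1.21 ± 0.19, and only 3 of its 7 KO arrays were well above background.

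All 10 co-receptors and other surface molecules fell. Cr2, the complement receptor CD21, ranged from 11.28 to 13.26 in WT of the total line (median 12.89) and from 7.59 to 11.83 in total ChREBP KO (median 10.19). Its difference of -2.61 ± 0.52 was a 6.11-fold lower intensity. Fcer2a ranged from 9.51 to 11.96 (median 11.54) against 5.64 to 10.59 (median 8.89), and Fcmr from 11.24 to 13.68 (median 13.04) against 6.31 to 12.02 (median 10.46). In each of these genes KO arrays 2 and 3 reached the WT range and the other KO arrays lay below it. Fc receptor-like genes Fcrl1 and Fcrla fell by 2.49 ± 0.45 and 2.26 ± 0.41, and the inhibitory receptor Cd72 by 2.31 ± 0.47. Cd83, a maturation marker of B cells and dendritic cells, fell by 1.5 ± 0.30, from 10.69 to 12.42 in WT mice (median 11.85) to 9.65 to 11.09 in KO mice (median 10.29). The smallest falls in this group were in the inhibitory lectin Cd22 (-0.75 ± 0.14) and the tetraspanin Cd37 (-0.57 ± 0.09).

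The small differences of Cd37 and Cd22 depended on the probe. For Cd37, the probe of highest mean gave -0.57, and the other probes of the gene gave -1.91 and -2.06. For Cd22, the probe of highest mean (mm9 chr7:31651249-31651308) gave -0.75, and the other probes gave -2.52, -1.17 and 0.02, the last with adjusted p = 0.865. The first 30 bases of the probe of highest mean are shown with a repetitive stretch of 14 bases in capitals, chosen after the values were seen, which 7 of the 56605 probes of the array hold on either strand.
Cd22 A_55_P2016004: gaaaaatgaaaAACCAACCAACCAAccaaa
Other members whose probes disagreed in size included the B lineage factor Pax5 (-0.61 and -1.82), Ms4a1 (-2.71 and -1.52) and Fcer2a (-2.72 and -0.84). Bank1 (-2.17 and -0.35) and Tnfrsf13c (-2.64 and -0.88) did so as well. Probes of Cd180 ran from -1.79 to -0.42, and those of Tnfrsf13b from -2.13 to -0.84. Of the 60 probes of the members, 57 were lower and called, against 19.6% of all probes. The part of probe sequence in these sizes was not tested, and no exon or untranslated region annotation of mm9 was used here.

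All 5 homing and survival receptors and lymphotoxin fell. Cxcr5 ranged from 9.40 to 11.47 in WT of the total line (median 11.05) and from 6.0 to 9.96 in total ChREBP KO (median 8.35), a difference of -2.58 ± 0.49. Tnfrsf13c, the BAFF receptor, ranged from 9.64 to 12.06 (median 11.49) against 6.33 to 10.33 (median 8.73), a difference of -2.64 ± 0.51 (adjusted p = 0.000153). In both genes 2 KO arrays reached the WT range. Tnfrsf13b, the related receptor TACI, fell by 2.13 ± 0.37, and the inhibitory receptor Btla by 2.5 ± 0.48. Ltb, the lymphotoxin subunit that lymphocytes use to maintain lymphoid tissue, fell by 2.09 ± 0.51 (adjusted p = 0.0017).

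Among transcription factors and coactivators, 5 of 6 fell. Spib, an Ets family factor, fell by 2.53 ± 0.51, Pou2af1, the coactivator of octamer-binding factors, by 2.49 ± 0.51, and the repressor Bach2 by 1.59 ± 0.27. Pax5 ranged from 6.67 to 7.60 in WT mice (median 7.24) and from 6.24 to 6.87 in KO mice (median 6.55), with 2 KO arrays inside the WT range. Ciita, the coactivator of MHC class II genes, ranged from 11.13 to 12.97 (median 12.38) against 9.64 to 11.39 (median 10.32), a difference of -1.82 ± 0.32. Bcl6 ranged from 12.08 to 13.80 in WT mice (median 12.80) and from 12.14 to 13.82 in KO mice (median 13.56), and all 7 KO arrays lay at or above the lowest WT array.

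Promoters were searched for motifs of B lineage factors after the members had been seen to move together. The searched factor Ebf1 is no member. Genes of other lists, such as T cell genes, moved in the same direction, and why the members moved together was not tested. RefSeq promoter windows, from 250 bases before to 50 bases after the gene start in GRCm38.p6, were found for 26 members. The octamer ATTTGCAT stood in the windows of Vpreb3 and Blnk, 7.69% of those members against 1.97% of all 27025 symbols. The Ets motif GAGGAAGT stood in those of Cd37, Cd72, Fcrl1 and Btla, 15.4% against 3.69%. The motif of the early B cell factor Ebf1, given here by its name, stood in that of Cd22, 3.85% against 1.06%. Both strands were searched, and no member held more than 1 of these motifs. The 150 bases before the start are shown for a pair of genes with each of the first motifs, with the match in capitals. Their windows are chr10:75948150-75948299 on the plus strand for Vpreb3, chr19:40994222-40994371 on the minus strand for Blnk, chr7:45238840-45238989 on the minus strand for Cd37 and chr16:45224187-45224336 on the plus strand for Btla.
Vpreb3: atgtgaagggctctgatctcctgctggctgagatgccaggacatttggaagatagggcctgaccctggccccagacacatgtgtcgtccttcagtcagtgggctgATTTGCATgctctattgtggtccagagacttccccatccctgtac
Blnk: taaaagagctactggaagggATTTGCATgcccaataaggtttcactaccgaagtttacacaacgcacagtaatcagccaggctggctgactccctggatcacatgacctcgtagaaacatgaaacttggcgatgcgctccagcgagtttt
Cd37: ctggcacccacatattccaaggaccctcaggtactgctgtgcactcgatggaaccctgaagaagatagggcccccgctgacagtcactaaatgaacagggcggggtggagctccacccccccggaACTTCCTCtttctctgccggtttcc
Btla: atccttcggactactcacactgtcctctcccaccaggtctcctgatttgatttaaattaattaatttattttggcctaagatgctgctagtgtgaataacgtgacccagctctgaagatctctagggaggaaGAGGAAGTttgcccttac
The octamer match began 45 bases before the start of Vpreb3 and 130 before that of Blnk. A match is a run of letters and was not tested as a binding site.

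The last 3 members also fell. Vpreb3, a protein of the pre-B cell receptor pathway that mature mouse B cells express, ranged from 9.71 to 11.62 in WT mice (median 11.09) and from 7.05 to 9.95 in KO mice (median 8.43), a difference of -2.38 ± 0.40 (adjusted p = 3.58e-05). Cd180, a Toll-like receptor homologue of B cells and myeloid cells, fell by 1.79 ± 0.41. Ly86, also known as MD-1, is the partner of Cd180 and fell by 1.47 ± 0.32, from 11.26 to 13.36 (median 12.14) to 10.40 to 11.50 (median 10.69).

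In ChREBPβ KO, no B cell gene differed from WT littermates. None of the 32 members was called, none had an unadjusted p under 0.05, and the lowest adjusted p was 0.9. The background was as low, with 0.0497% of all genes called and 7.71% at an unadjusted p under 0.05. The median log2 difference over the members was 0.02, with 18 above and 14 below 0. The largest sizes were in Pou2af1 (-0.46 ± 0.56), Cd180 (-0.41 ± 0.45) and Cr2 (0.40 ± 0.57). The smallest among members above background were in Cd79b (0.02 ± 0.55), Pax5 (0.03 ± 0.13) and Cd72 (0.04 ± 0.51). Blk was well above background on none of the WT arrays and on 1 of 4 KO arrays with a value, so that no size of its difference can be read. The standard errors of the strongest B cell markers were wide (0.61 for Ms4a1 and 0.74 for Fcmr), and the lack of a call does not show that the levels were alike. Within wash batches the median difference was 0.35, 0.04 and -0.29 in the batches with both groups.

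A single ChREBPβ KO array stood above the other KO arrays. Ms4a1 measured 8.71, 6.48, 6.75, 6.52 and 5.93 in KO replicates 1, 2, 4, 5 and 6, and between 6.23 and 7.76 in WT mice (median 6.48). Fcmr measured 9.06, 6.58, 6.23, 6.40 and 5.70 in the same KO replicates, and between 6.11 and 7.41 in WT mice. Replicate 1 was the highest KO array for 18 members and replicate 4 for 9. Among WT arrays of the line, replicate 8 was the highest for 14 members and replicate 3 for 9.

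**Figure D2:**
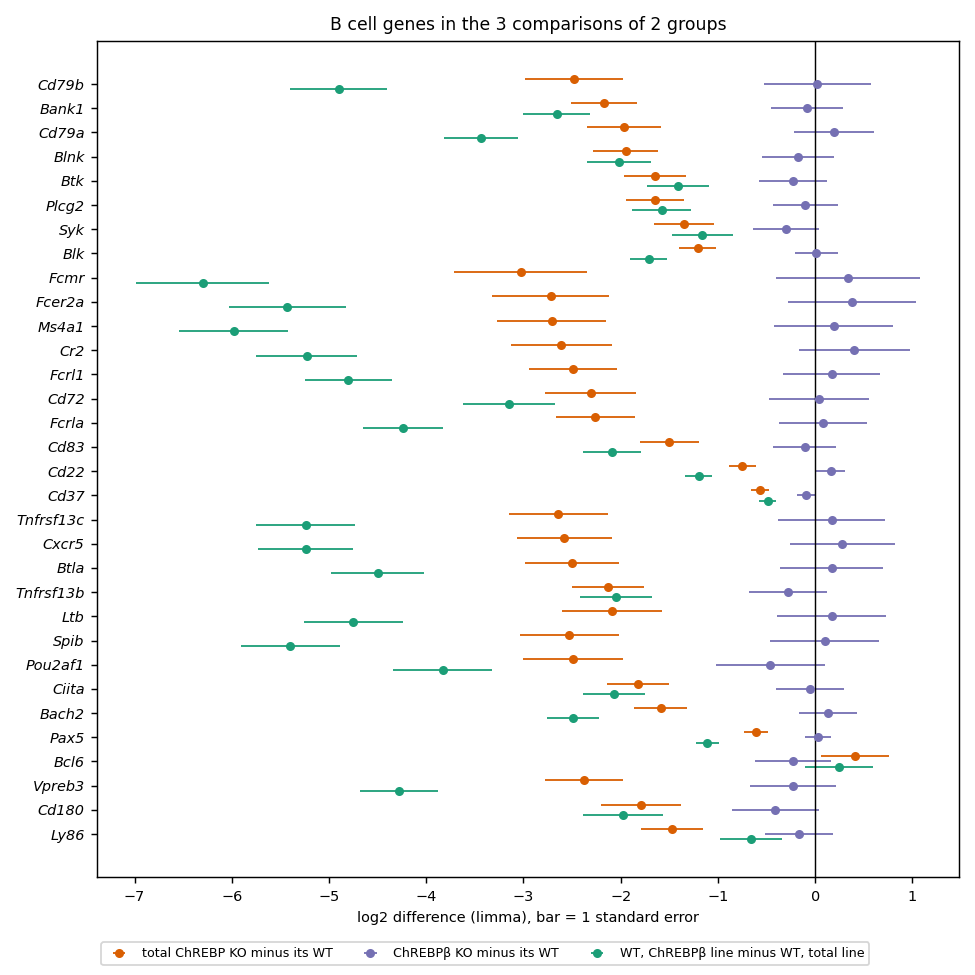
Points are log2 differences of each B cell gene with 1 standard error, for total ChREBP KO against its WT (orange), ChREBPβ KO against its WT (purple) and both WT groups against each other (green). Purple points lie between -0.46 and 0.40, and 31 orange points lie below 0.

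The KO effects of both lines were compared by the interaction, the ChREBPβ effect minus the total effect. It was above 0 and called for 28 of 32 members, at a median of 2.06, while 10.2% of all genes were called above 0 and 13% below 0. Some members were low in WT of the ChREBPβ line, with means of 5.13 for Cd79a, 5.08 for Fcrl1 and 5.47 for Cxcr5. Blk, not well above background there, had a mean of 4.44. A fall of the total-line size had little room to appear in such members, so their positive interaction was partly set in advance. Other members, such as Blnk (10.71) and Ltb (9.26), had higher means there. For Blnk this was near its mean in total ChREBP KO (10.78). How much of these intensities came from B cells was not tested. The largest interactions were in Fcmr (3.37 ± 1.01, adjusted p = 0.018), Fcer2a (3.10 ± 0.90, adjusted p = 0.015) and Cr2 (3.02 ± 0.77, adjusted p = 0.00682). Their means in WT of the ChREBPβ line were also low for falls of the total-line size, at 6.45, 5.73 and 7.29. The sizes of these interactions were thus partly set in advance as well. The smallest absolute values were in Cd37 (0.48 ± 0.14), Pax5 (0.64 ± 0.18) and Bcl6 (-0.64 ± 0.53). Those of Cd37 and Pax5 depended on the probe, and other probes gave 1.80 and 1.92 for Cd37 and 2.00 for Pax5. Bcl6 (adjusted p = 0.415), Cd180 (0.104), Syk (0.1) and Pou2af1 (0.0535) were not called. With the slide as a fixed block, 1 member, Blk, was called in place of 28, and the median interaction was 3.35, where no slide held both total ChREBP KO and its WT. The call of Ly86 (adjusted p = 0.0477) was lost in 17 of the 26 fits that left out 1 array, with adjusted p up to 0.12 without ChREBPβ KO replicate 4, and the calls of Btk and Ltb were lost in 10 such fits each.

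WT mice of the ChREBPβ line had far lower B cell gene intensities than WT mice of the total line. Of the 32 members, 30 were lower and called, and none was higher, against 19.7% and 26.1% of all genes. The median log2 difference was -2.90, and 21 members separated both WT groups with no overlap of arrays, which 6.42% of all genes did in the lower direction. The largest differences were in Fcmr (-6.30 ± 0.68, adjusted p = 9.15e-08), Ms4a1 (-5.98 ± 0.56, adjusted p = 1.52e-08) and Fcer2a (-5.43 ± 0.60, adjusted p = 1.34e-07). For Ms4a1 this was a 63.2-fold lower intensity. For Blk, which was not well above background on any WT array of the ChREBPβ line, the difference was at least 2.97-fold. The smallest were in Bcl6 (0.24 ± 0.35), Cd37 (-0.49 ± 0.09) and Ly86 (-0.66 ± 0.32, adjusted p = 0.0957), and Bcl6 and Ly86 were not called. The other probes of Cd37 gave -2.41 and -2.53. Ly86 was called without WT replicate 4 of the total line (adjusted p = 0.03) and without WT replicate 3 of the ChREBPβ line (adjusted p = 0.0355). Both groups were WT for Mlxipl, and the line and any handling that went with it cannot be told apart. This comparison shares its WT arrays with the comparison in total ChREBP KO, and the values of both are given side by side only.

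The 4 groups stood in a different order for Cr2 and for Ly86. Mean log2 intensity of Cr2 was 12.52 ± 0.84 in WT of the total line, 9.91 ± 1.60 in total ChREBP KO, 7.29 ± 0.42 in WT of the ChREBPβ line and 7.69 ± 0.86 in ChREBPβ KO (SD, n = 7, 7, 7 and 5). The last 2 groups overlapped and did not differ beyond their spread. Arrays of total ChREBP KO filled the gap between them and WT of the total line, with replicates 1 and 7 (8.16 and 7.59) within the range of the ChREBPβ line. Ly86 followed another order, with means of 12.35 ± 0.67, 10.88 ± 0.44, 11.69 ± 0.63 and 11.53 ± 0.80 in the same groups.

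**Figure D3:**
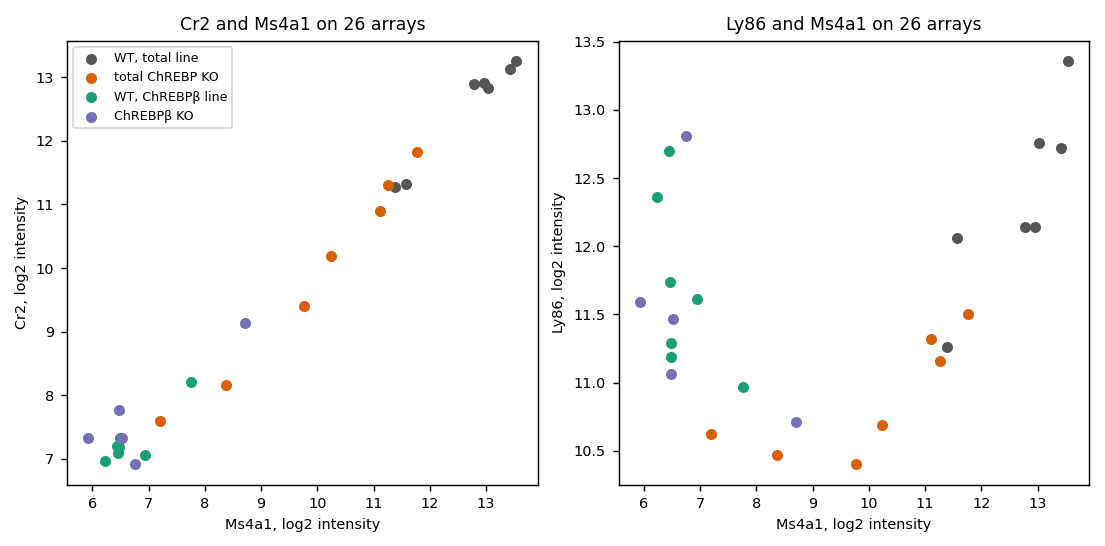
Each point is 1 array, with the log2 intensity of Ms4a1 on the x axis and of Cr2 (left) or Ly86 (right) on the y axis, coloured by group. Cr2 rose with Ms4a1 over the arrays of the total line, and Ly86 was high on arrays of the ChREBPβ line with low Ms4a1.

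Within groups, the members rose and fell together in the total line. Over the 7 WT arrays of that line, Pearson's r with Ms4a1 had a median of 0.98 over 31 members and was above 0.9 for 29. Over the 7 total ChREBP KO arrays, the median was 0.94 and 19 members were above 0.9. By exact permutation of the pairings, with adjustment over 93 relations, 30 members passed in WT mice and 25 in KO mice. The WT arrays stood in 2 sets, with replicates 4 and 5 below the other 5. Without them, the median r was 0.92 over 5 arrays. In KO mice, without replicates 1 and 7, the median r was 0.98. Bank1 gave r = 1.00 and Spearman's rho = 1.00 in WT mice and r = 0.96 and rho = 1.00 in KO mice (exact adjusted p = 0.000971 in each). Bcl6 was the member with negative r in both groups, -0.39 (rho = 0.11, exact adjusted p = 0.428) and -0.43 (rho = -0.46, exact adjusted p = 0.39). Its r in WT mice turned to 0.87 without replicates 4 and 5. In KO mice Blk, Cd37, Pax5, Ly86 and Syk did not pass either.

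In WT of the ChREBPβ line, the members split. The median r with Ms4a1 was -0.01, 15 members were above 0 and 16 below, and 3 passed. Those were Fcmr (r = 0.91, rho = 0.96, exact adjusted p = 0.0392), Vpreb3 (r = 0.90, rho = 0.54, exact adjusted p = 0.0349) and Fcer2a (r = 0.85, rho = 0.75, exact adjusted p = 0.0493). Without replicates 1 and 8, which were farthest from the median of Ms4a1, r was 0.51, 0.09 and 0.73. The relation of Vpreb3 thus rested largely on those arrays, that of Fcmr in part and that of Fcer2a less so. By rho, Fcmr alone of these passed (exact adjusted p = 0.00662). The most negative were the transcription regulators Bach2 (-0.82, rho = -0.43) and Ciita (-0.73, rho = -0.82), followed by Ly86 (-0.60), Blnk (-0.56), Syk (-0.51) and Cd180 (-0.5). The lymphoid genes Bank1 (-0.11), Btla (-0.01) and Ltb (-0.3) were also below 0. None of the 16 passed by r, while rho passed for Blnk (-0.89, exact adjusted p = 0.0216) and Ly86 (-0.86, exact adjusted p = 0.0382).

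Adgre1, the macrophage marker F4/80, was set against the members after the data had been seen. In WT of the ChREBPβ line, r with Adgre1 was above 0.8 for 10 members, Cd22, Cd72, Blnk, Btk, Tnfrsf13b, Cd180, Ly86, Ltb, Plcg2 and Syk. Btk gave r = 0.97 (rho = 0.71) and Ly86 r = 0.92 (rho = 0.82), with exact adjusted p of 0.349 and 0.337 over 96 relations, and no member passed in any of the 3 groups. Adgre1 measured 12.08 and 12.20 in WT replicates 3 and 6 of that line and between 10.86 and 11.07 in the others. Without replicates 3 and 6, none of the 10 members kept an r above 0.8. The pattern thus rested on those arrays. In the total line the median r with Adgre1 was 0.15 in WT mice and -0.55 in KO mice. The group of 5 ChREBPβ KO arrays was too small for a correlation, and replicate 4 had both its highest Adgre1 (12.32) and its highest Ly86 (12.81).

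**Figure D4:**
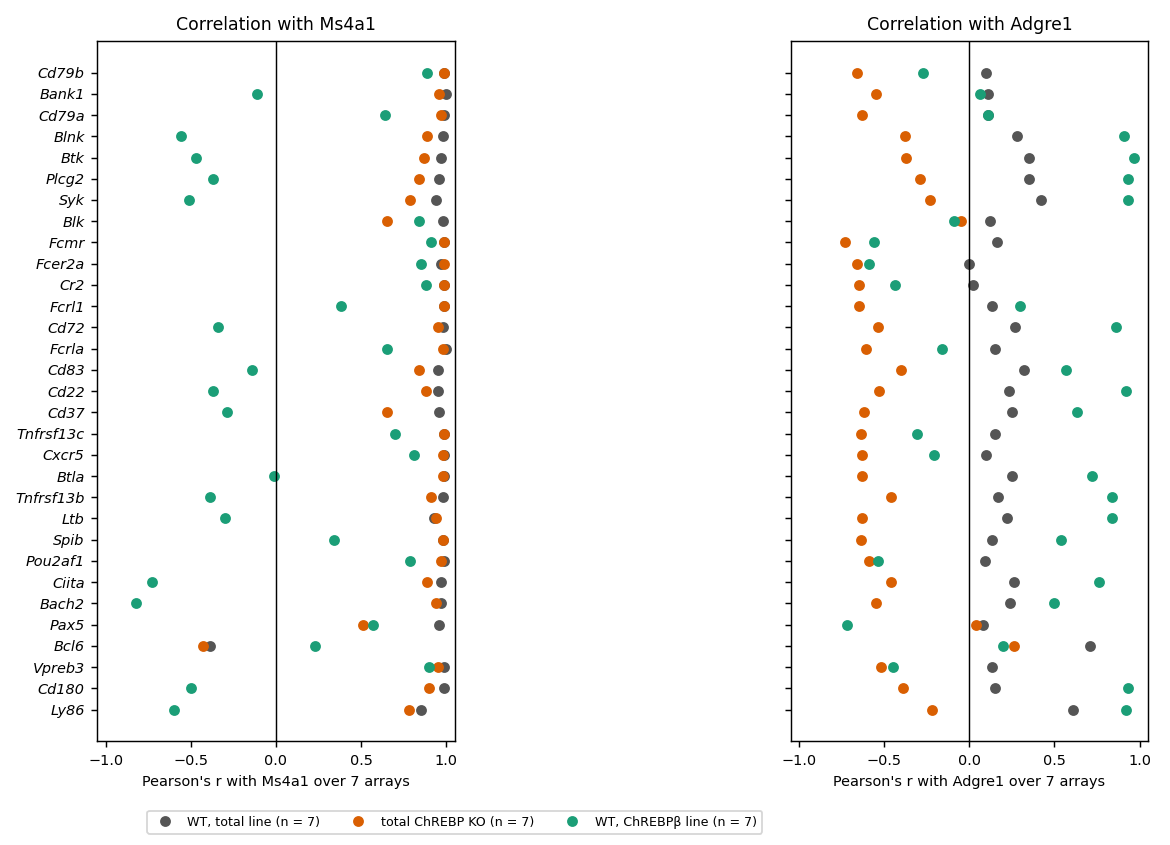
Points are Pearson's r of each B cell gene other than Ms4a1 (rows) with Ms4a1 (left) and Adgre1 (right) over the 7 arrays of WT of the total line (grey), total ChREBP KO (orange) and WT of the ChREBPβ line (green). On the left, grey points lie between -0.39 and 1.00, and green points between -0.82 and 0.91.

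The genes most like the B cell genes were sought by the correlation with the median of the members over all 26 arrays, after the mean of each group had been taken off. Of 26087 genes, the closest that were no members included Siglecg, an inhibitory lectin of B cells (r = 0.971), Bcl11a, a lymphoid transcription factor (r = 0.969), B3gnt5 (r = 0.969), Ralgps2 (r = 0.969), Chst3 (r = 0.968) and Il4i1 (r = 0.964). The other 4 of the 10 closest were Gm20506 (r = 0.973), LOC105245440 (r = 0.973) and 2 transcripts without a symbol. The 100 closest genes held 12 members, and none of the 16 T cell genes. Within groups of the total line, the T cell gene Cd3e still rose with Ms4a1. Its r was 0.86 in WT mice (exact adjusted p = 0.0369) and 0.76 in KO mice (exact adjusted p = 0.105). In WT of the ChREBPβ line it was -0.45 (exact adjusted p = 0.385). The members themselves made the median, so their high places were partly built in, while T cell genes had no part in it. Of the members, Btla was the closest (r = 0.969), Ly86 (r = 0.562) and Cd37 (r = 0.629) were far from it, and Bcl6 had r = -0.297. These values are at the probe of highest mean, and the other probes of Cd37 were not ranked.

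Other genes of B cell biology were counted by list in total ChREBP KO, where 20.2% of all genes fell and 25.7% rose. Counts in short lists that lie near these shares are not results about the lists. Of 22 other antigen receptor signalling genes, 16 fell and 2 rose, with a median of -0.72, among those that fell the GTPase Rac2 (-2.15 ± 0.45). Of 12 other B lineage transcription factors, 9 fell and 1 rose, with Bcl11a (-2.5 ± 0.54), Ikzf1 (-2.03 ± 0.41) and Pou2f2 (-1.43 ± 0.25) the largest. All 10 MHC class II pathway genes fell, at a median of -1.39, with H2-Ob (-2.41 ± 0.45), H2-Oa (-2.4 ± 0.46) and H2-DMb2 (-2.16 ± 0.35) the largest. Of 8 germinal centre genes, 2 fell, Mef2b (-0.39 ± 0.11) and Rgs13, while Gcsam (-0.41 ± 0.17) did not pass. Of 7 plasma cell genes, 2 fell, Mzb1 (-2.0 ± 0.39) and Derl3 (-0.54 ± 0.17), and 1 rose, Tnfrsf17 (0.49 ± 0.16). Of 4 early B cell genes, 2 fell, Il7r (-2.6 ± 0.65) and Dntt (-0.67 ± 0.15), and 2 rose, Vpreb1 (0.44 ± 0.09) and Cd93. Of 8 survival and homing signals, 3 fell, Cxcl13, the ligand of Cxcr5 (-2.19 ± 0.53), Lta (-1.89 ± 0.41) and Cd40 (-1.57 ± 0.30), and 3 rose. Cxcl13 is also counted in the list of lymph node stroma and venule genes. In ChREBPβ KO none of these genes was called, and 0.0497% of all genes were.

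Markers of other cells moved beside the B cell genes. In total ChREBP KO 20.2% of all genes fell and 25.7% rose. Between the WT groups, 19.7% of all genes were lower and 26.1% higher in the ChREBPβ line. All 16 T cell genes fell in total ChREBP KO (median -2.28), with Lef1 (-2.72 ± 0.68), Cd8b1 (-2.59 ± 0.65) and Cd3d (-2.53 ± 0.60) the largest, and all 16 were lower in WT of the ChREBPβ line than in WT of the total line (median -4.18). Of 6 genes of lymph node stroma and venules, 5 fell, among them Ccl21a, a chemokine of lymph node stroma (-3.61 ± 0.97), and Glycam1, a ligand made by high endothelial venules (-3.02 ± 0.48), as well as Ccl19 (-2.70 ± 0.50). Between both WT groups, as ChREBPβ line minus total line, Ccl21a gave -7.31 ± 0.97 and Glycam1 -5.36 ± 0.48. On the log2 scale, the summed signal of these stromal genes lay between 14.24 and 15.67 on WT arrays and between 9.99 and 14.54 on KO arrays of the total line. In the ChREBPβ line it lay between 10.54 and 12.24 on WT arrays and between 9.82 and 12.51 on KO arrays. All of them were well above background on some arrays of each group. Of 12 macrophage genes, 4 fell in total ChREBP KO, among them Cd68 (-1.12 ± 0.36) and Lyz2 (-0.89 ± 0.24), and 8 were higher in WT of the ChREBPβ line. Of 10 adipocyte genes, 9 rose in total ChREBP KO, at a median of 0.49, among them Cidec (1.12 ± 0.12) and Plin1 (0.85 ± 0.09). Of 10 skeletal muscle genes 3 rose, among them Myh4 (5.32 ± 2.12), 3 of 6 dendritic cell genes fell, among them Flt3 (-1.79 ± 0.36), and no red blood cell gene of 5 was called. All 5 red blood cell genes were lower in WT of the ChREBPβ line (median -0.68). The part of these cell types in the values of the B cell genes was not tested.

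**Figure D5:**
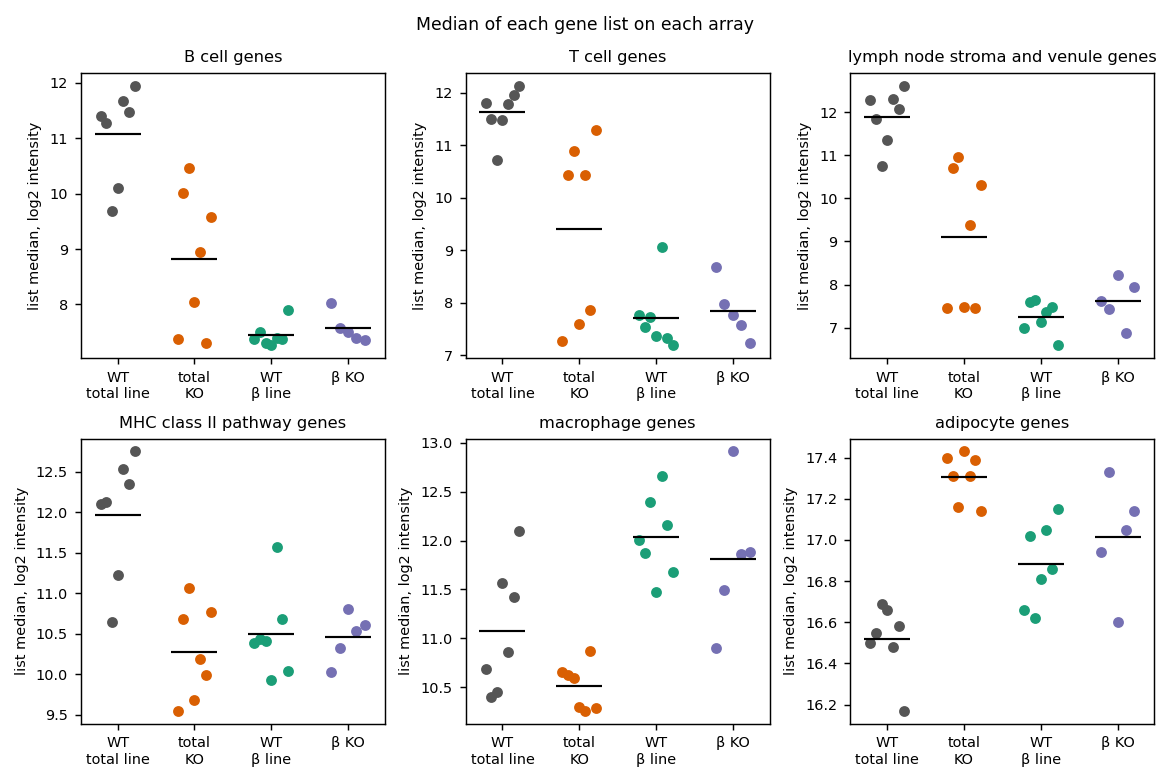
Each point is the median log2 intensity of a gene list on 1 array, and lines are group means. B cell, T cell and lymph node stroma lists have arrays of total ChREBP KO spread between WT of the total line and the ChREBPβ line, and the adipocyte list has its highest mean in total ChREBP KO.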

How the data were processed

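RNA of inguinal fat from 26 mice was hybridised to 1-colour Agilent arrays of 56605 probes, 1 array per mouse. The authors extracted spot intensities with Feature Extraction 10.10.1.1 (per the labels), filtered spots on quality, quantile normalized them and took the median of replicated probes. The deposited table of log2 values (40168 probes) was the main source here, since the members were defined on it. Against the deposited scanner intensity values, each column was matched best by its own array (lowest r = 0.999), and the column medians were 7.76 to 7.77, so the values were uncentred log2 intensities. The number of arrays limits the precision. Groups came from the titles. Replicates are different mice, and the litter of each was not given.

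A mean per group was fitted with limma 3.58.1 in R 4.3.3 to all 26 arrays (22 residual degrees of freedom), with Benjamini-Hochberg adjustment over all probes and calls at 0.05. The fit was checked on simulated data. Background shares are over 26154 genes at 1 probe each. Correlations used exact two-sided permutation of 7 arrays (5040 pairings). Members, gene lists, roles and tests were chosen with earlier results of these data known. Values per array, or the lowest, median and highest of a group, were given for 16 members chosen by role. The 3 largest and 3 smallest differences of each comparison were named, and the 3 largest differences were considered in each other gene list. Other alternatives were scanner values (quantile, 75th percentile, normexp with offset 50), dim-probe filters, blocks, array weights and leaving out each array. The table had 97 missing values, and Blk was fitted without ChREBPβ KO replicate 4, whose value was missing. No annotation in mm9 was used here. Some genes of the other lists and 1 probe sequence are not reported here.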

Additional observations from a re-analysis of the deposited data

Results flagged for a closer look

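Arrays far from the rest of their group were sought in each member and group by the gap to the nearest array. Of 128 sets of arrays, 15 had such an array, and chance alone gives about 1 in 20 for independent sets. The sets share arrays and the members varied together, so the count cannot be set against that rate. ChREBPβ KO replicate 1 was the highest for Cd79a (6.16), Fcer2a (7.97), Fcmr (9.06), Cxcr5 (7.17), Fcrla (6.28), Tnfrsf13c (7.44) and Vpreb3 (7.51), and replicate 4 for Tnfrsf13b (9.08) and Plcg2 (11.32). In WT of the ChREBPβ line, replicate 8 was the highest for Cd79b (9.53), Cr2 (8.20) and Fcmr (7.41), and replicate 6 for Cd83 (11.04). Bcl6 had its lowest array in total ChREBP KO replicate 2 (12.14) and in WT replicate 4 of the ChREBPβ line (12.03).

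The KO effects of both lines differed by the interaction term of limma for 28 members. Low intensities in WT of the ChREBPβ line limited how far some of them could fall, Fcmr, Fcer2a and Cr2 among them. The differences of log2 effects were 3.37 for Fcmr, 3.10 for Fcer2a and 3.02 for Cr2, the largest, and 0.48 for Cd37, 0.64 for Pax5 and 0.91 for Cd22, the smallest among those called.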

How the results depend on the processing

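In 13 alternatives of scaling, filter, probe, fit or block that kept the array set, the slide as a fixed block set aside, 29 to 31 members were called lower in total ChREBP KO, 0 in ChREBPβ KO and 28 to 31 in the comparison of both WT groups. The alternatives held 30 to 32 of the members. The lowest counts, 29 and 28, came from the filter that kept 30. For the interaction, 26 to 30 were called in 12 such alternatives, and a fit to the compared groups alone does not exist for it. With the slide as a fixed block, 1 member, Blk, was called for the interaction in place of 28 (adjusted p from 0.0439 to 0.588), and no slide held both total ChREBP KO and its WT. Leaving out 1 array at a time gave 31 to 31, 0 to 0, 25 to 30 and 30 to 31 calls in total ChREBP KO, ChREBPβ KO, the interaction and the WT comparison. Of 5064 values of single members, 0 changed sign with a call and 86 crossed the threshold, of which 3 were Ly86 in the WT comparison and the others were in the interaction. The cause was not tested. Pou2af1 gained its interaction call in 9 of these fits. Samples sharing a replicate number did not deviate together as a set. Of 30 such pairs, 10 had a correlation over 0.1, and their correlations ran from -0.456 to 0.507. The median was 0.0116, against 0.000662 for pairs of different numbers, so the numbers were treated as a label only. With a random replicate block, 31, 0, 27 and 30 members were called, and with a fixed one 31, 0, 28 and 30. Correlations with Ms4a1 passed for 29, 24 and 2 of 30 members with scanner values after quantile normalization, and for 29, 25 and 3 after the 75th percentile, in WT and KO of the total line and WT of the ChREBPβ line. Without the 2 farthest arrays, the median r was 0.92, 0.98 and -0.57. With groups of 5 and 7 arrays, a member of wide spread such as Fcmr has a standard error of 0.74 in ChREBPβ KO, which limits what that comparison can show.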
